A study of Homo sapiens with 18 samples.

Results

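The 10 genes described here encode writers and readers of histone H3 lysine 9 (H3K9) methylation other than EHMT2 and EHMT1, together with factors of the human silencing hub (HUSH). They are the methyltransferase genes SETDB1, SUV39H1 and SUV39H2, the heterochromatin protein 1 (HP1) genes CBX1, CBX3 and CBX5, the SETDB1 cofactor genes TRIM28 and ATF7IP, and the HUSH genes MPHOSPH8 and MORC2. They were chosen by symbol, and all 10 were among the 26475 gene symbols of the deposited count table. RNA-seq was made from Mel92.1 and MP41, established cell lines of uveal melanoma (a melanoma of the eye), with 3 biological replicates in each of 6 groups and 18 libraries in all. In each line, cells were given UNC0642 (1 μM, 48 h), A366 (1 μM, 48 h) or the vehicle DMSO. UNC0642 and A366 are small molecules that block the methyltransferase activity of EHMT2 (also called G9a) and of its close relative EHMT1 (GLP). Neither compound was tested at another dose or time, and each line stands for a single tumour.

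Libraries labelled A366 replicates 2 and 3 of either line were read as libraries of the other line. This placement is the one that a per-replicate dataset of the study uses. Genes with at least 20 CPM (read counts scaled to a common library size) in the DMSO libraries of a line and at most 0.1 CPM in those of the other, 22 for Mel92.1 and 29 for MP41, bear on it directly: in these 4 libraries, the genes of the line in which they were placed reached 95.4% to 113% of the DMSO level, and those of the line on the label 0.0253% to 0.0558%. The remaining 14 libraries include the 6 DMSO libraries by which the genes were chosen, and those 6 are no independent comparison. For these 14, own-line genes stood at 88.1% to 115% and genes of the opposite line at 0.00982% to 0.407%. Replicates 2 and 3 of the A366 group of MP41 therefore carry a Mel92.1 label throughout, and the reverse holds for Mel92.1. Values as labelled, which mix the lines, or without the 4 libraries are given beside the calls they end.

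Methylation of H3K9 marks silent chromatin. EHMT2 and EHMT1 place mainly the lower methylation states in euchromatin, whereas SETDB1, SUV39H1 and SUV39H2 place trimethylation, SETDB1 at repeated elements and zinc finger genes and the SUV39H enzymes mainly at pericentric repeats. TRIM28 (KAP1) is the scaffold by which KRAB zinc finger proteins bring SETDB1 to DNA, and ATF7IP keeps SETDB1 stable and in the nucleus. The HP1 proteins made from CBX5 (HP1α), CBX1 (HP1β) and CBX3 (HP1γ) read the mark through a chromodomain. HUSH silences retroelements and young integrated genes. MPHOSPH8 (MPP8) is its chromodomain subunit, TASOR and periphilin are its other core subunits, and the ATPase MORC2 compacts chromatin at its targets.

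Total expected counts ran from 23601156 to 62941462 per library (median 41955693), and 4 ribosomal RNA genes took 3.31% to 32.8% of them. The shallowest library, Mel92.1 UNC0642 replicate 1, was also the one with the highest ribosomal share. Every member was well covered, the lowest value being 273 counts for ATF7IP in that library. Levels are given as CPM after TMM scaling over the 18 libraries. Each of 10 melanocyte lineage genes (MITF, SOX10, PMEL, MLANA and others) was above 1 CPM in every library, and none was at 0. DCT, also on that list, was close to this level in Mel92.1 (1.36 to 2.91 CPM with DMSO), against 327 to 330 CPM in MP41. EHMT2, the target of both compounds, did not differ between the lines with DMSO beyond the test's threshold (log2 fold difference 0.12, adjusted p = 0.188), whereas EHMT1 was higher in Mel92.1 (1.12, adjusted p = 6.23e-09). Against DMSO, EHMT2 passed only with A366 in MP41, where it rose (0.23, adjusted p = 0.00936) and 46% of all genes tested passed. EHMT2 has 60.9% GC, and the part of the GC relation given below in its rise was not tested. EHMT1 passed in none of the 4 comparisons.

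In GENCODE release 29 on GRCh38, SETDB1 lies on chromosome 1 (positions 150926263 to 150964744, plus strand), SUV39H1 on chromosome X (48695554 to 48709012, plus) and SUV39H2 on chromosome 10 (14878820 to 14904315, plus). CBX1 lies on chromosome 17 (48070052 to 48101521, minus), CBX3 on chromosome 7 (26201162 to 26213356, plus) and CBX5 on chromosome 12 (54230940 to 54280133, minus). TRIM28 is on chromosome 19 (58544091 to 58550722, plus), ATF7IP on chromosome 12 (14365632 to 14502935, plus), MPHOSPH8 on chromosome 13 (19633681 to 19673459, plus) and MORC2 on chromosome 22 (30925130 to 30968298, minus). Several stand next to or over other genes. CBX3 starts 367 bp from HNRNPA2B1 on the opposite strand and overlaps it, CBX5 starts 60 bp from HNRNPA1, and MORC2 starts 947 bp from the long noncoding RNA gene TUG1 and overlaps the antisense gene MORC2-AS1. SUV39H2 overlaps DCLRE1C and SETDB1 overlaps CERS2, each on the opposite strand. The library kit marked strand, but whether the counting used it is not given in the sources used here. Values of the HP1 genes are also uncertain for another reason, since the annotation holds 9 pseudogenes of CBX3, 5 of CBX1 and 1 of CBX5. Of these only CBX3P2 has a row in the count table (413 counts over the 18 libraries), and how reads were divided between copies is not stated.

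MORC2 and MPHOSPH8 are the members on which the results below turn most, and the 250 bases before their RefSeq starts (GRCh38.p14) are shown, read 5′ to 3′ in the direction of the gene. Capitals mark matches, on either strand, to the CCAAT box (CCAAT or ATTGG) and the GC box (GGGCGG or CCGCCC). The windows are chr22:30968775-30969024 on the minus strand and chr13:19633409-19633658 on the plus strand. RefSeq and GENCODE place the starts differently, so the MORC2 window does not adjoin the GENCODE start given above (30968298). The distance from MORC2 to TUG1 given above is from the GENCODE start.
MORC2: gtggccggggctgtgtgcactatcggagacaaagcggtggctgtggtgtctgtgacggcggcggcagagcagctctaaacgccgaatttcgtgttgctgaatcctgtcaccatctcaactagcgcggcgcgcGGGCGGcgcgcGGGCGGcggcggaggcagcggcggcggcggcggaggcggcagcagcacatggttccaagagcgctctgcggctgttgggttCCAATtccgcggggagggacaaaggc
MPHOSPH8: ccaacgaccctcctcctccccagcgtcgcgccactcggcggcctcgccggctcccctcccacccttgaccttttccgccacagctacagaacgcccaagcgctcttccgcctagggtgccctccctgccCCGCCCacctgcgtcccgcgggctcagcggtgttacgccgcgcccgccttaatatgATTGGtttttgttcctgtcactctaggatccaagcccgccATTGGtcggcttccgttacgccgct
Both windows are rich in CpG, with 31 CpG dinucleotides before MORC2 and 26 before MPHOSPH8, against a median of 11 over 27305 RefSeq promoter windows of the same length. Each holds both motifs. A CCAAT box is found in 33% of all such windows and a GC box in 42.3%, so these matches are common and describe the letters of the windows alone. Of the 10 genes, 9 had an entry in the promoter table, all but TRIM28.

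The levels of the 10 genes were compared first between the lines, with DMSO. Per kb of the longest annotated transcript, the level in Mel92.1 was highest for TRIM28 (229 CPM per kb ± 14.5, SD, n = 3), followed by CBX3 (157 ± 3.96) and CBX1 (96.7 ± 1.73). The other 7 were lower, from 19.4 ± 1.81 CPM per kb for CBX5 down to 4.17 ± 0.943 for ATF7IP. Neighbours in this order overlapped for MPHOSPH8 and SUV39H2, for SUV39H2 and SETDB1, and for MORC2 and SUV39H1. In MP41, CBX3 came first (240 CPM per kb ± 7.5), before CBX1 (79.2 ± 3.4) and TRIM28 (49.8 ± 2.14), and the 7 others lay between 12.1 and 7.11 CPM per kb. Here the replicates of MPHOSPH8 and CBX5 overlapped, as did each neighbouring pair from SUV39H2 through SETDB1, SUV39H1 and MORC2 to ATF7IP. In both lines the HP1 genes CBX1 and CBX3 were above CBX5 on this scale, which for CBX5 rests on a longest transcript of 11528 bases. In CPM, not divided by length, CBX5 (209 to 247) and CBX1 (230 to 238) overlapped in Mel92.1.

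All 10 genes differed between the lines with DMSO at an adjusted p under 0.05, where 69.4% of the 15799 genes tested did. TRIM28 differed most. Its 3 DMSO libraries gave 630, 691 and 712 CPM in Mel92.1 against 140, 151 and 151 CPM in MP41, a log2 fold difference of 2.20 (SE 0.08, adjusted p = 1.36e-13), or 4.59-fold. The lines did not overlap, and over all 18 libraries the lowest Mel92.1 value (615 CPM) was above the highest MP41 value (194 CPM). Higher in Mel92.1 were also SETDB1 (0.70, SE 0.09), CBX5 (0.68, SE 0.079), SUV39H2 (0.67, SE 0.094), MORC2 (0.48, SE 0.066), SUV39H1 (0.39, SE 0.10), MPHOSPH8 (0.33, SE 0.096) and CBX1 (0.29, SE 0.059), as log2 fold differences with adjusted p of at most 0.00541. CBX3, by contrast, was lower in Mel92.1, with 327, 331 and 343 CPM against 497, 509 and 529 CPM (log2 fold difference -0.62, SE 0.051, adjusted p = 8.19e-09). ATF7IP was lower too, with 31.4, 33.0 and 46.6 CPM against 60.9, 63.6 and 64.7 CPM (-0.77, SE 0.21, adjusted p = 0.00362). Thus the SETDB1 scaffold gene and the SETDB1 cofactor gene stood in opposite order in the lines. When GC content and transcript length entered the fit as an offset, the differences of ATF7IP (-0.19, adjusted p = 0.134) and SUV39H1 (0.041, adjusted p = 0.80) did not pass. Sizes of differences that still passed also moved under it, with TRIM28 at 1.56, CBX5 at 1.32 and CBX3 at -0.38. With the libraries as labelled, CBX5 (0.68, adjusted p = 0.0644) and SUV39H2 (0.67, adjusted p = 0.0721) did not pass. With no composition factor in the edgeR fit, CBX1 (adjusted p = 0.403), MPHOSPH8 (adjusted p = 0.262) and SUV39H1 did not pass.

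**Figure D1:**
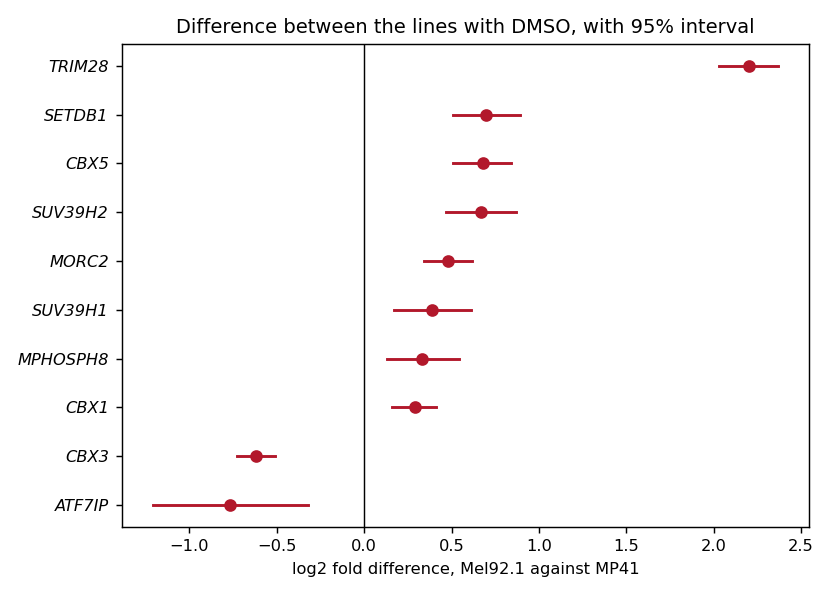
The log2 fold difference of each gene between the DMSO libraries of Mel92.1 and MP41 is plotted on the x axis (3 libraries a line), with bars for the 95% interval of the edgeR fit. TRIM28 lies at 2.20, 7 more genes lie to the right of 0, and CBX3 and ATF7IP lie to the left.

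The question put to the inhibitors was whether the other parts of the H3K9 methylation system changed at the RNA level while EHMT2 and EHMT1 were blocked. For UNC0642 in Mel92.1, 0 of the 10 genes passed an adjusted p of 0.05, where 0.688% of 14528 genes did. By edgeR's unadjusted p under 0.05, 2 members passed (MPHOSPH8 and MORC2), and by the DESeq2 Wald test with adjustment the same 2 did. A366 in Mel92.1 gave 1 member, MORC2, against 0.213% of the genes tested. UNC0642 in MP41 gave 0 members, against 0.241% of 14956 genes, with 2 at an unadjusted p under 0.05 (SUV39H1 and MORC2) and 0 by DESeq2. With A366 in MP41, 6 members passed (ATF7IP, SUV39H2, CBX5 and MORC2 lower, MPHOSPH8 and TRIM28 higher), where 46% of all genes tested passed. A count of 6 in 10 is near that background, so the number alone says little of these genes. The median log2 fold change of the members was -0.087, 0.018, 0.022 and -0.14 in this order of comparisons, and that of all genes tested -0.022, -0.0052, 0.0011 and 0.02. The 3 inhibitor libraries stood wholly above or below those with DMSO, without overlap, for 4, 2, 3 and 6 of the 10 members, against 15.4%, 15.7%, 18.8% and 58% of all genes tested. The 4 comparisons are not independent, because the compounds share the DMSO libraries of a line.

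**Figure D2:**
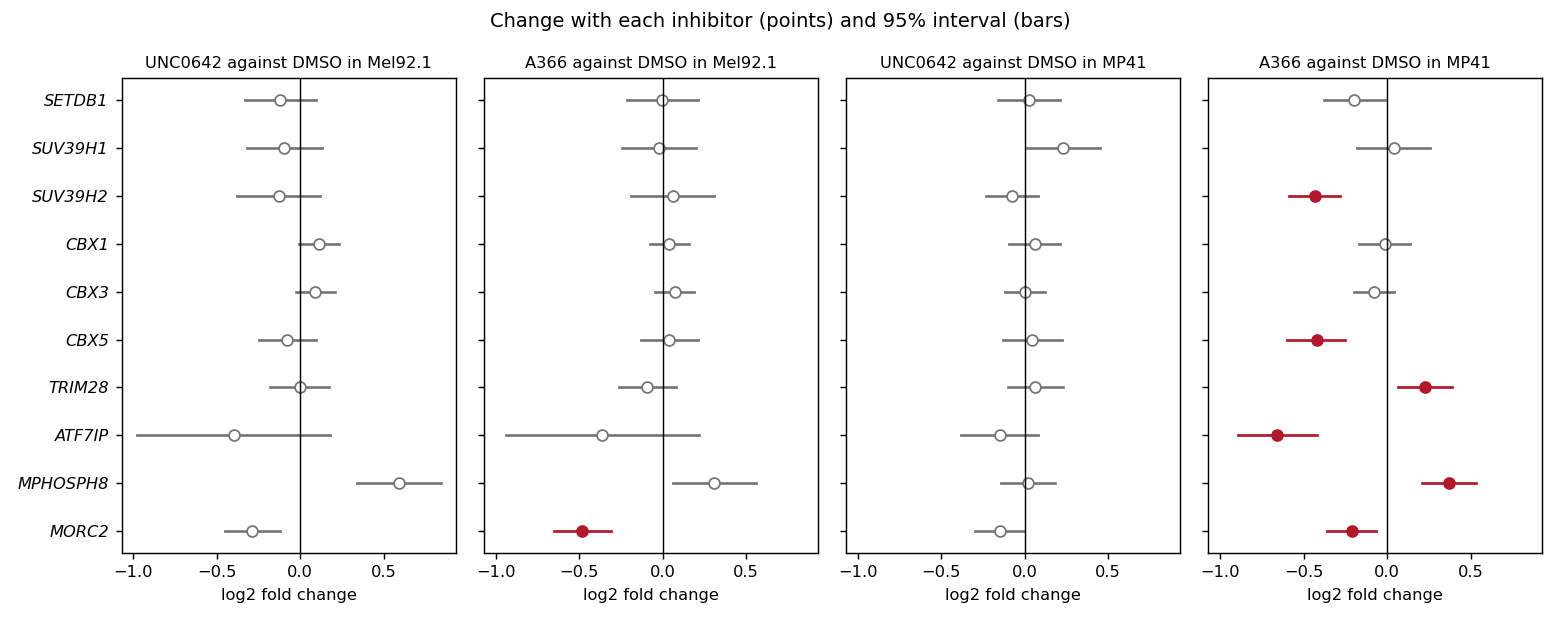
Log2 fold changes of the 10 genes for each inhibitor against DMSO in each line (points) with 95% intervals (bars). Filled red points passed an adjusted p of 0.05 over all genes tested. MORC2 is the gene that passed with A366 in Mel92.1, and 6 genes passed with A366 in MP41.

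MORC2, the ATPase that works with HUSH, was lower with each compound in each line. In Mel92.1 its DMSO libraries gave 50.9, 53.5 and 54.4 CPM, those with UNC0642 40.6, 44.3 and 45.4 CPM, and those with A366 37.3, 37.4 and 39.3 CPM. In MP41 the DMSO libraries gave 37.5, 38.0 and 38.6 CPM, those with UNC0642 32.3, 34.8 and 35.7 CPM, and those with A366 32.6, 32.8 and 34.5 CPM. All 12 inhibitor libraries were below every DMSO library of their line. This held for 0.182% of the 13767 genes tested in both lines (25 genes) and for no other member. The opposite, above every DMSO library in all 12, was also looked for and held for 0.261% (36 genes) and for no member. The falls with A366 passed the test, in Mel92.1 (log2 fold change -0.48, SE 0.074, adjusted p = 0.0399, 0.718 of the DMSO level) and in MP41 (-0.21, SE 0.068, adjusted p = 0.0218, 0.862 of the DMSO level). The differences with UNC0642 did not, at -0.29 (SE 0.075, adjusted p = 0.185) in Mel92.1 and -0.15 (SE 0.068, adjusted p = 0.542) in MP41.

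The size of the MORC2 fall in Mel92.1 was steady while its call was not. Over 22 alternatives the log2 fold change with A366 stayed between -0.59 and -0.45, yet only 8 of them passed (adjusted p 1.23e-08 to 1). Leaving out any library of the line other than UNC0642 replicate 1 ended the call, with log2 fold changes of -0.51 to -0.47. Without the 4 exchanged libraries, where a single A366 library is left and is assumed to vary like the other groups, it was -0.51 (adjusted p = 1), and with the libraries as labelled -0.59 (adjusted p = 0.162). In MP41, 15 of 22 alternatives passed, with -0.28 to -0.05 over the 22, the latter as labelled (adjusted p = 0.738). The neighbours on the opposite strand gave other values: TUG1 passed with A366 in MP41 (-0.73, SE 0.11, adjusted p = 0.000694) but not in Mel92.1 (-0.12, SE 0.14, adjusted p = 1), and MORC2-AS1, with 1249 counts over the 18 libraries, passed in none of the 4 comparisons. Their part in the counts of MORC2 was not tested.

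MPHOSPH8, the chromodomain subunit of HUSH, had higher values than DMSO in 3 of the 4 comparisons. Its Mel92.1 libraries gave 56.0, 67.0 and 71.4 CPM with DMSO, 92.4, 96.0 and 106 CPM with UNC0642, and 72.3, 79.3 and 89.5 CPM with A366. In MP41 they gave 50.5, 51.4 and 52.4 CPM with DMSO, 50.6, 53.0 and 53.6 CPM with UNC0642, and 60.4, 70.7 and 71.8 CPM with A366. So the replicates did not overlap with DMSO except for UNC0642 in MP41, although the lowest A366 library of Mel92.1 was close to the highest DMSO library. With A366 in MP41 the gene rose (log2 fold change 0.37, SE 0.074, adjusted p = 0.002), and it passed under each of 22 alternatives, with 0.30 to 0.61. UNC0642 in Mel92.1 gave the largest value, 0.59 (SE 0.11, 95% interval 0.34 to 0.84), which fell just outside the threshold (adjusted p = 0.0524) and passed under 5 of 22 alternatives. A366 in Mel92.1 gave 0.31 (SE 0.11, adjusted p = 0.807), and UNC0642 in MP41 0.022 (SE 0.074, adjusted p = 0.968). The difference between the lines in the response to UNC0642 was 0.57 (SE 0.14, adjusted p = 0.0809) and did not pass, where 0.601% of 15799 genes did and 0 members did. An unadjusted p under 0.05 was reached by 2 members there, SUV39H1 and MPHOSPH8, and the DESeq2 Wald test called MPHOSPH8 (adjusted p = 0.0161). Without Mel92.1 UNC0642 replicate 1, the shallowest library, no member passed for UNC0642 in Mel92.1 either.

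**Figure D3:**
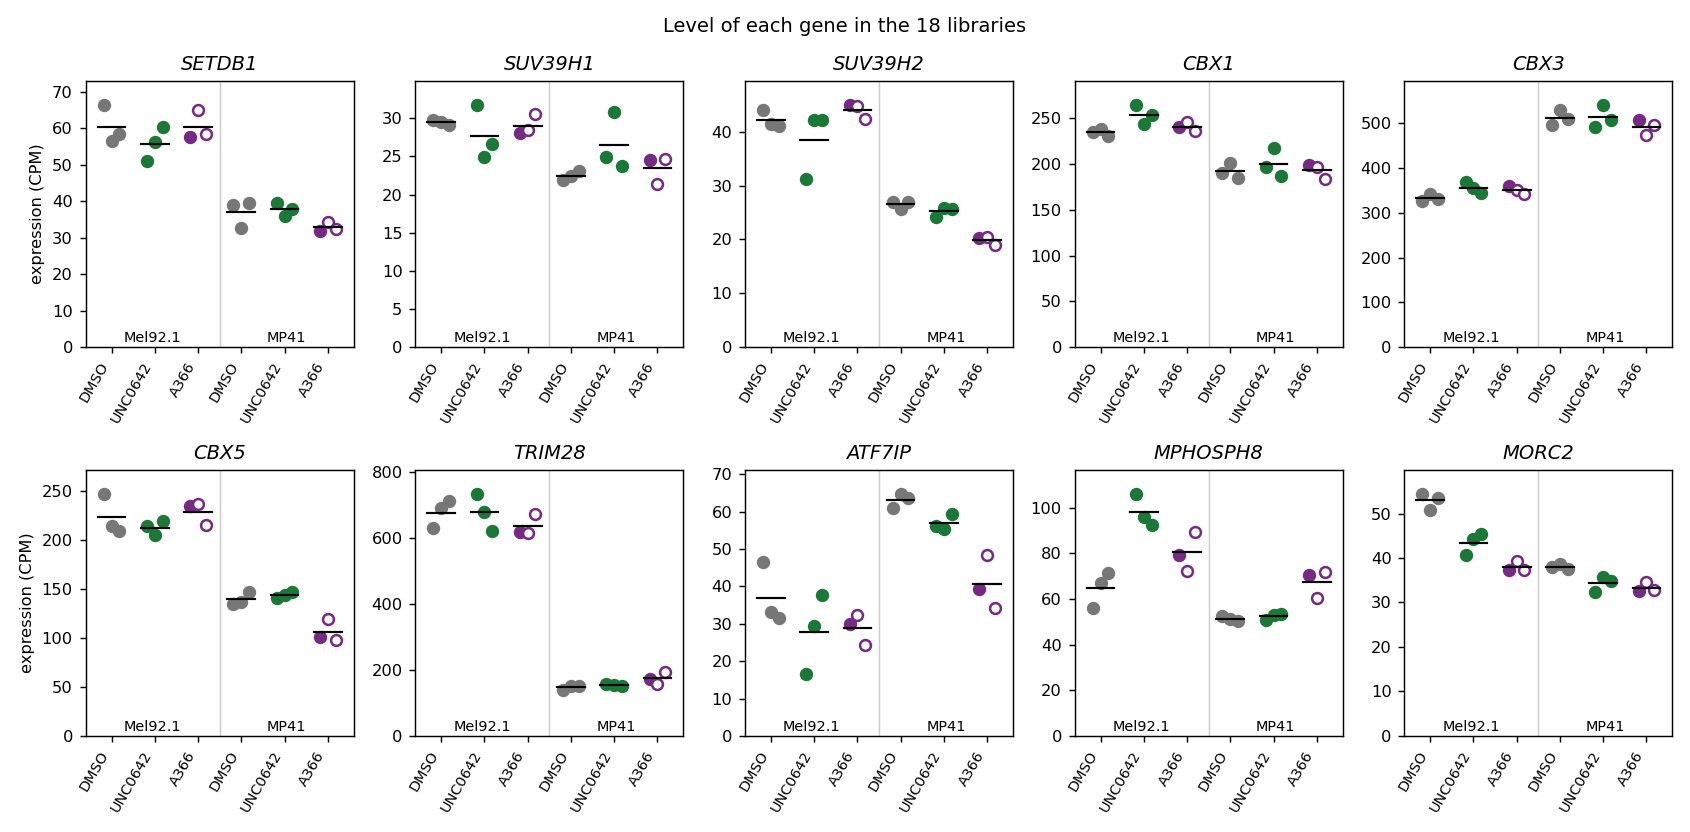
The CPM of each gene (y axis, from 0) is plotted in every library by line and treatment (x axis, 3 libraries a group), with a bar at the mean of the group. Open circles are the 4 libraries read as the line opposite to their label. MORC2 falls below DMSO in all 12 inhibitor libraries, and TRIM28 separates the lines in all 18.

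Among the genes of the SETDB1 module, ATF7IP fell with A366 in MP41. Its libraries gave 60.9, 63.6 and 64.7 CPM with DMSO, 55.3, 56.0 and 59.3 CPM with UNC0642 and 34.2, 39.3 and 48.5 CPM with A366. The A366 libraries were all below the others, by a log2 fold change of -0.66 against DMSO (SE 0.11, adjusted p = 0.000813, 0.635 of the DMSO level), and the call held under all 22 alternatives (-0.97 to -0.23). UNC0642 gave -0.15 in MP41 (SE 0.11, adjusted p = 0.764). In Mel92.1 the gene varied so much among replicates, from 16.6 CPM in UNC0642 replicate 1 to 46.6 CPM in a DMSO library, that values of -0.40 with UNC0642 (95% interval -0.98 to 0.18) and -0.36 with A366 (-0.94 to 0.22) could not be told from 0.

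TRIM28 rose slightly with A366 in MP41, from 140, 151 and 151 CPM to 159, 174 and 194 CPM (log2 fold change 0.23, SE 0.074, adjusted p = 0.025). This call was less settled than those of ATF7IP and SUV39H2, since leaving out A366 replicate 1 or 3 or DMSO replicate 1 or 3 ended it (0.14 to 0.24) and correction by an offset for GC and length turned it to -0.066 (adjusted p = 0.267). In Mel92.1, TRIM28 ran from 615 to 734 CPM over the 9 libraries, with log2 fold changes of -0.0038 for UNC0642 (SE 0.077) and -0.091 for A366 (SE 0.077), neither past the threshold. SETDB1 itself passed in none of the 4 comparisons. Its nearest approach was A366 in MP41, where the libraries gave 31.9, 32.4 and 34.4 CPM against 32.7, 39.1 and 39.5 CPM with DMSO and overlapped with them (-0.20, SE 0.084, adjusted p = 0.0739). That value passed without DMSO replicate 2, the lowest of the DMSO libraries (-0.28, adjusted p = 0.0214), and without A366 replicate 2 (-0.23, adjusted p = 0.0326).

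Of the SUV39H enzymes, SUV39H2 fell with A366 in MP41. The DMSO libraries gave 25.6, 26.9 and 27.0 CPM and the A366 libraries 19.0, 20.3 and 20.5 CPM, without overlap (log2 fold change -0.43, SE 0.072, adjusted p = 0.000865). Without the 4 exchanged libraries it was -0.42 (adjusted p = 0.00469), and with the libraries as labelled, which mix the lines, 0.45 (adjusted p = 0.219). DCLRE1C, which overlaps SUV39H2 on the opposite strand, fell by a like amount in that comparison (-0.42, SE 0.09, adjusted p = 0.00296), and its part in the value of SUV39H2 was not tested. In Mel92.1, SUV39H2 ran from 41.1 to 44.9 CPM in 8 libraries and stood at 31.2 CPM in UNC0642 replicate 1. SUV39H1 passed in none of the comparisons with DMSO. With UNC0642 in MP41 its libraries (23.7, 24.9 and 30.8 CPM) were all above those with DMSO (21.9, 22.4 and 23.1 CPM), at a log2 fold change of 0.23 (SE 0.10, adjusted p = 0.527).

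The HP1 genes CBX1 and CBX3 were the steadiest of the set under treatment. Their log2 fold changes lay between -0.081 and 0.11 in the 4 comparisons, with SE of 0.053 to 0.07, and none passed. Their 95% intervals reached furthest from 0 for CBX1 with UNC0642 in Mel92.1 (-0.0073 to 0.23). CBX5 behaved differently with A366 in MP41, where it fell from 135, 137 and 147 CPM to 97.4, 101 and 119 CPM (log2 fold change -0.42, SE 0.081, adjusted p = 0.00164). As labelled, the value was 0.42 (adjusted p = 0.272). UNC0642 left it at 141, 144 and 147 CPM in MP41 (0.041, SE 0.08), and in Mel92.1 it gave -0.077 with UNC0642 and 0.037 with A366, neither past the threshold. HNRNPA1, whose start lies 60 bp from that of CBX5, did not pass with A366 in MP41 (0.04, SE 0.06, adjusted p = 0.614).

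Changes with A366 in MP41 went along with GC content and transcript length over all genes (Spearman's rho 0.46 with GC content and -0.47 with length, over 14455 genes with an annotation, given as a description since genes are not replicates). The members span much of that range, from TRIM28 (63.7% GC, 2960 bases) to ATF7IP (40.2% GC, 8878 bases) and CBX5 (41.8% GC, 11528 bases). Genes within 2 percentage points of GC and 0.5 log2 units of length of each member were therefore set beside it. For CBX5 the 267 such genes had a median log2 fold change of -0.47, and for TRIM28 the 458 such genes 0.33, close to the values of those members. ATF7IP (-0.66), SUV39H2 (-0.43) and SETDB1 (-0.20) lay below the lower quartiles of their like genes (-0.64, -0.34 and -0.18). MORC2 (-0.21) lay within the quartiles of its 597 like genes (-0.26 and 0.21). MPHOSPH8 (0.37) lay above the upper quartile of its 1006 like genes (quartiles -0.36 and 0.07). The median of those genes (-0.17) was on the other side of 0. Once these properties were used as an offset, CBX5 was at 0.026 (adjusted p = 0.736), whereas MPHOSPH8 (0.48, adjusted p = 0.000826), SUV39H2 (-0.34, adjusted p = 0.00088), ATF7IP (-0.23, adjusted p = 0.00502) and MORC2 (-0.20, adjusted p = 0.0256) passed. SETDB1 (-0.23, adjusted p = 0.0176) and CBX1 (-0.17, adjusted p = 0.0453) passed under the offset but not without it. In Mel92.1 the relation with A366 was weaker (rho -0.23 with GC content and 0.02 with length, over 14096 genes).

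**Figure D4:**
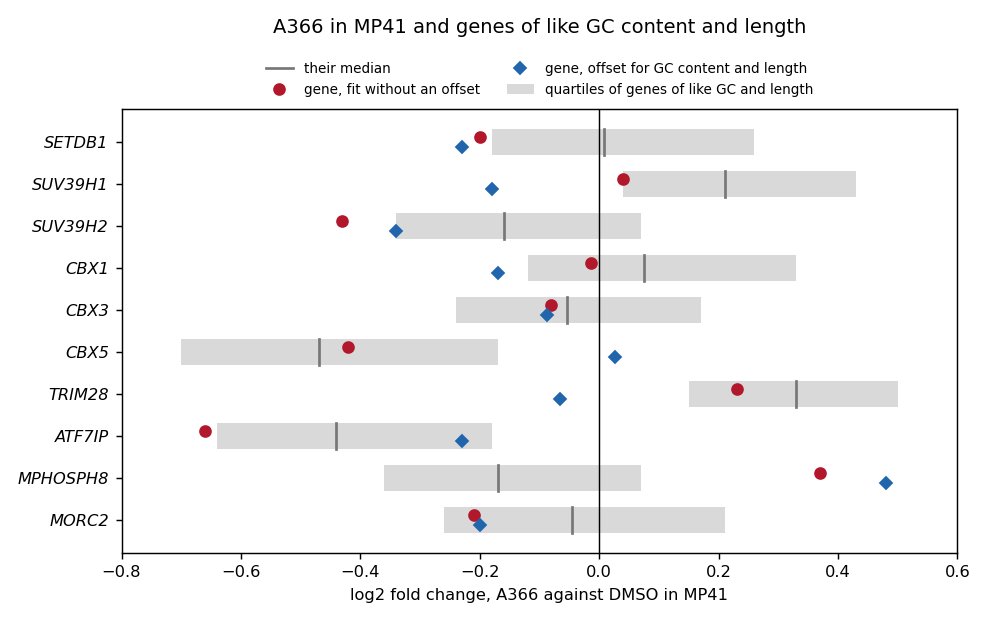
For A366 against DMSO in MP41, the log2 fold change (x axis) of each gene is shown as fitted without GC content or length (red circles) and after correction by an offset for those properties (blue diamonds), beside the quartiles (grey bars) and median (grey line) of genes of like GC content and length. The grey bars come from the fit without an offset. On that fit CBX5 and TRIM28 lie within their bars and MPHOSPH8 lies above its bar. CBX5 and TRIM28 move to near 0 under the offset.

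Proliferation genes moved in the same comparison. Of 14 such genes, 9 fell and 1 rose with A366 in MP41, where 46% of all genes passed, and MKI67 fell from 379 to 441 CPM with DMSO to 176 to 275 CPM (log2 fold change -0.94, SE 0.14, adjusted p = 0.00063). Their summed level was 3500 to 3510 CPM with DMSO and 2830 to 2890 CPM with A366. In Mel92.1 MKI67 was the member of this list that passed with UNC0642 (2.47, SE 0.17, adjusted p = 0.000216). With A366, 0 passed there by edgeR, and the sum stood at 3080 to 3110 CPM with DMSO and 3070 to 3100 CPM with A366. MKI67 itself was at 12.3 to 16.4 CPM with DMSO and 24.4 to 32.2 CPM with A366 (0.97, SE 0.17, adjusted p = 0.063). The difference between the lines in its response to A366 passed (1.88, SE 0.24, adjusted p = 0.000267). The proliferation genes were not set beside genes of like GC content and length. The part of the GC and length relation in their changes was not tested. The part of cycling cells in the values of the members was not tested. In a bulk culture, fewer cells that express a gene and less RNA per cell cannot be told apart.

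The compounds were also compared with each other at the same dose and time. In Mel92.1, 0 members passed for A366 against UNC0642, where 0.165% of the genes did. The unadjusted p was under 0.05 for MORC2 (log2 fold change -0.19, 95% interval -0.36 to -0.024) and MPHOSPH8 (-0.28, -0.53 to -0.03), and DESeq2 with adjustment called 0. In MP41, 4 members passed, where 43.1% of the genes did: CBX5 (-0.47, SE 0.081, adjusted p = 0.00107), ATF7IP (-0.50, SE 0.11, adjusted p = 0.00308) and SUV39H2 (-0.36, SE 0.072, adjusted p = 0.00228) were lower with A366, and MPHOSPH8 (0.35, SE 0.074, adjusted p = 0.00295) was higher. Correction for GC content and length ended the calls of CBX5 (-0.027, adjusted p = 0.732) and ATF7IP (-0.098, adjusted p = 0.175), and those of SUV39H2 (-0.27, adjusted p = 0.00343) and MPHOSPH8 (0.46, adjusted p = 0.00105) passed under it. As labelled, CBX5 (0.38, adjusted p = 0.32) and SUV39H2 (0.53, adjusted p = 0.162) did not pass. MORC2 gave -0.062 there (95% interval -0.21 to 0.086, adjusted p = 0.487), so falls with A366 larger than the lower bound lie outside the interval.

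The response to A366 differed between the lines for 4 members (13.8% of 15799 genes), by the test of the difference itself, with values above 0 where the change was more positive in Mel92.1. It was higher in Mel92.1 for SUV39H2 (0.47, SE 0.13, adjusted p = 0.0301) and CBX5 (0.44, SE 0.11, adjusted p = 0.0191), which fell in MP41 alone. It was lower for TRIM28 (-0.35, SE 0.11, adjusted p = 0.0432) and MORC2 (-0.29, SE 0.093, adjusted p = 0.0477), the latter having fallen further in Mel92.1. Without the 4 exchanged libraries none of these differences passed, nor with no composition factor. Correction for GC content and length also ended all 4, leaving SUV39H2 at 0.35 (adjusted p = 0.0533) and MORC2 at -0.29 (adjusted p = 0.213) and turning CBX5 to -0.014 and TRIM28 to 0.01. As labelled, SUV39H2 (-1.02, adjusted p = 0.0604) and CBX5 (-0.97, adjusted p = 0.0661) turned and did not pass. ATF7IP (0.27, SE 0.30, adjusted p = 0.588) and MPHOSPH8 (-0.084, SE 0.14, adjusted p = 0.739) were not found to differ between the lines in their response to A366, and the interval for ATF7IP (-0.35 to 0.90) is wide.

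A list of 24 further genes of H3K9 methylation and heterochromatin, 23 of them tested, was read beside the members. With A366 in MP41, 13 fell and 2 rose, where 46% of all genes tested passed. Among them were the other core HUSH genes FAM208A (TASOR; log2 fold change -0.51, SE 0.095, adjusted p = 0.00143) and PPHLN1 (periphilin; -0.35, SE 0.062, adjusted p = 0.00116), as well as FAM208B (TASOR2), which fell most (-0.90, SE 0.14, adjusted p = 0.000643). The chromatin remodeller gene SMARCAD1 fell (-0.66, SE 0.092, adjusted p = 0.000442), and SUV420H2, which encodes an H4K20 methyltransferase, rose (0.64, SE 0.14, adjusted p = 0.00391). MPHOSPH8 thus rose in the comparison in which the genes of its core partners fell. Those partners were not set beside genes of like GC content and length. The part of that relation in their falls was not tested. In Mel92.1, FAM208A (-0.012 with UNC0642 and 0.07 with A366) and PPHLN1 (0.12 and 0.029) did not pass. Only ATRX, a remodeller that binds H3K9-methylated repeats, passed there with either compound. It rose by 0.81 with UNC0642 (SE 0.086, adjusted p = 0.00218) and by 0.53 with A366 (SE 0.086, adjusted p = 0.0499). With A366 it ranked last of the 31 genes past the threshold, and values of ATRX under the alternatives are not given here. With UNC0642 in MP41, 0 of the 23 passed, with 1 at an unadjusted p under 0.05 (CHAF1B). Between the lines with DMSO, 18 of the 23 differed (69.4% of all genes did), 8 higher and 10 lower in Mel92.1, and ZNF638 (-1.75), MORC3 (-1.61) and ATRX (-1.58) differed most in log2 terms.

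After the mean of each line was taken off, log2 CPM values were compared over the 18 libraries as a description. Among the members, SUV39H2 and ATF7IP went together most closely (Pearson's r 0.84), then SUV39H2 and CBX5 (0.76), and MPHOSPH8 went against ATF7IP (-0.83) and TRIM28 against SUV39H2 (-0.83). Over 10956 genes with a mean of 5 CPM or more, the nearest to MORC2 were the zinc finger genes ZNF274 (r = 0.908) and ZNF320 (0.872), and the nearest to CBX5 was FAM208A (0.975), followed by YOD1 (0.973). ATF7IP was nearest to ZNF322 (0.987) and CASD1 (0.965), SUV39H2 to CENPC (0.959) and DDX18 (0.957), TRIM28 to CYC1 (0.967) and SELO (0.961), and MPHOSPH8 to CTSL (0.973) and NENF (0.958). SETDB1 had NUP214 (0.928) and WASF2 (0.921), SUV39H1 DNAJC11 (0.841) and TSPAN13 (0.814), and CBX3 RARS (0.894) and RCN2 (0.841). CBX1 was nearest to ANP32A (0.854) and then to HNRNPA2B1 (0.831), the gene beside CBX3. These values share the libraries, their depth and the GC relation given above. Only the line means were taken off, so differences between the treatments remain in them.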

How the data were processed

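RNA-seq of 18 libraries was analysed from the expected counts per gene that the authors deposited, made with RSEM 1.2.15 and Bowtie2 2.1.0 on hg38 according to the submitters' processing notes, and not normalized for depth. The paper's methods name another pipeline (mouse build, FPKM), whose values were not used here. The notes differ on oligo-dT selection or ribosomal RNA removal. All columns of libraries were used and 0 left out. The 10 genes, the gene lists and the placement of the exchanged libraries were chosen with earlier results of these data known.

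Expected counts were rounded. For each line 1 model of its 9 libraries was made in edgeR 4.0.16 (R 4.3.3), after filterByExpr and TMM, by glmQLFit with glmQLFTest. Benjamini-Hochberg adjustment covered every gene tested, and the threshold was 0.05. Differences between the lines came from 1 fit of the 18 libraries. SE is the log2 fold change over the root of F, and intervals (95%) use the t distribution with the fit's degrees of freedom. Named were all members, EHMT2 and EHMT1, MKI67, up to 3 listed genes per comparison with the largest changes past the threshold without overlap of replicates, and the 2 genes nearest to each member. CHAF1B, FAM208A and PPHLN1, and the values of neighbouring genes, were named after their values were seen.

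The alternatives were the groups as labelled, leaving out the 4 exchanged libraries, DESeq2 1.42.0, RLE factors, no composition factor, no filter, genes kept from a mean of 1 CPM upwards, a block for the replicate number, limma 3.58.1 voom with quality weights, an offset for GC content and length (from GENCODE 29, with 23899 symbols found by name, 719 by synonym and 1857 not found) without and with that block, fits of 6 or 18 libraries, and leaving out each library. The test was also run on simulated counts, and the outcome is not given here. Those counts held no trend with GC content or length and far fewer changed genes than A366 in MP41. Same-numbered libraries did not deviate together (1 of 18 pairs had a correlation over 0.1, range -0.195 to 0.225), so the numbers do not pair them. The spread between replicates sets the p-values, and counts of reads are not counts of molecules. Tables were written with pandas 2.3.3 and numpy 2.4.6 under Python 3.11.15, and plots with matplotlib 3.10.9.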

Additional observations from a re-analysis of the deposited data

Results flagged for a closer look

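The response to A366 differed between Mel92.1 and MP41 for 4 of the 10 genes, against 13.8% of all 15799 genes tested, by edgeR's test of the interaction over 18 libraries with Benjamini-Hochberg adjustment. On the log2 scale, with values above 0 where the change was more positive in Mel92.1, the differences were 0.47 for SUV39H2 (adjusted p = 0.0301), 0.44 for CBX5 (adjusted p = 0.0191), -0.35 for TRIM28 (adjusted p = 0.0432) and -0.29 for MORC2 (adjusted p = 0.0477). SUV39H2 and CBX5 fell with A366 in MP41, where each A366 library was below each DMSO library, and did not pass in Mel92.1. TRIM28 rose in MP41 alone. MORC2 fell in both lines and further in Mel92.1. The calls held under 16, 17, 9 and 6 of 29 alternatives, in this order. Correction for GC content and length ended all 4 and turned CBX5 to -0.014 and TRIM28 to 0.01.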

How the results depend on the processing

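Of 2190 values of the 10 genes under the alternatives, 1918 kept their sign and their side of the threshold, 148 kept the sign but crossed the threshold, 16 reversed, and 108 had another sign while passing in neither fit (the largest at 0.58 in size, 24 of them with a library left out). The cause of the changes below was not tested. With the groups as labelled, which mixes the lines, SUV39H2 and CBX5 reversed for A366 in MP41 (0.45 and 0.42) and for A366 against UNC0642 there (0.53 and 0.38), and the line difference for A366 reversed for SETDB1 (-1.02), SUV39H2 (-1.02), CBX1 (-0.42) and CBX5 (-0.97). Correcting for GC and length turned CBX5 (0.026) and TRIM28 (-0.066) for A366 in MP41, the same with the replicate block added, and the line difference for A366 of CBX5 (-0.014, and -0.015 with the block) and TRIM28 (0.01, and 0.011 with the block).

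For the members past the threshold, UNC0642 in Mel92.1 (0) gave 2 with DESeq2 and in the fit of 18 libraries, and 1 with no filter, the 1 CPM filter and voom. A366 in Mel92.1 (1) gave 4 with voom and 0 as labelled, without the exchanged libraries, with no composition factor, with the replicate block and with the GC and length offset with or without the block, and 0 to 1 with a library left out. A366 in MP41 (6) gave 3 as labelled and 4 to 7 with a library left out. A366 against UNC0642 in MP41 (4) gave 7 with no composition factor and 4 to 6 with a library left out. The line difference for UNC0642 (0) gave 1 with DESeq2 and with voom. That for A366 (4) gave 8 as labelled, 7 with voom, 2 with RLE, no filter and the block, 0 without the exchanged libraries, with no composition factor and with the offset with or without the block, and 0 to 4 with a library left out.

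For all genes past the threshold, UNC0642 in Mel92.1 (100) gave 0 as labelled, 40 without the exchanged libraries, 389 with DESeq2, 18 with no composition factor, 46 with the replicate block, 413 with voom, 15 with offset and block, 42 with 6 libraries, 298 with 18, and 38 to 183 with a library left out. A366 in Mel92.1 (31) gave 0 as labelled and without the exchanged libraries, 170 with DESeq2, 14 with no composition factor, 10 with the block, 3087 with voom, 12 with offset and block, 123 with 6 libraries, 136 with 18, and 9 to 147 with a library left out. UNC0642 in MP41 (36) gave 0 as labelled, 116 without the exchanged libraries, 180 with DESeq2, 61 with no filter, 9 with the block, 154 with voom, 134 with the offset, 75 with offset and block, 116 with 6 libraries, 11 with 18, and 5 to 130 with a library left out. A366 against UNC0642 in Mel92.1 (24) gave 0 as labelled and without the exchanged libraries, 214 with DESeq2 and with voom, 10 with no composition factor, 6 with the block, 11 with the offset, 1 with offset and block, 10 with 6 libraries, 147 with 18, and 5 to 47 with a library left out. The line difference for UNC0642 (95) gave 0 as labelled, 56 without the exchanged libraries, 315 with DESeq2, 25 with no composition factor, 243 with voom, and 65 to 176 with a library left out. That for A366 (2179) gave 7801 as labelled, 208 without the exchanged libraries, 3446 with DESeq2, 482 with no composition factor, 9276 with voom, 211 with the offset, 136 with offset and block, and 621 to 3874 with a library left out. Counts for A366 in MP41 (6884; 4797 to 7940 with a library left out) and A366 against UNC0642 there (6450; 4456 to 7721) stayed within 1.5 times the value given under every alternative.

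Same-numbered libraries of a line did not deviate together, so the block is given as an alternative without pairing. Groups held 3 libraries, and replicates varied more in Mel92.1 (biological coefficient of variation 0.175) than in MP41 (0.109).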
